A study of Mus musculus with 8 samples.

Results

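The Hox genes are the 39 mouse homeobox genes that lie in 4 clusters, HoxA with 11 genes, HoxB with 10, HoxC with 9 and HoxD with 9. They were followed here in progenitors sorted from mouse bone marrow and measured on 8 one-colour Agilent arrays. Members were chosen by symbol, without regard to their values, as every gene named Hox with a cluster letter and a paralogue number, and antisense genes were left out. They were represented by 43 of the 55681 non-control probes. A probe was tested only if it was well above background, by the scanner software's own flag, on both arrays of at least 1 group, and 19 of the 39 genes met that filter among 28088 tested features. All mice were females of 12 weeks on a C57Bl/6J background, either wild type or deficient in ACKR1, a chemokine-binding receptor that does not signal through G proteins, and the deficient mice came from a heterozygous breeding colony with the wild-type mice as littermates. LSK cells (no lineage markers, positive for Sca1 and cKit) hold haematopoietic stem cells and multipotent progenitors. GMP cells (no lineage markers, no Sca1, positive for cKit, CD34 and CD16/32) hold granulocyte-macrophage progenitors. There were 2 arrays for each of the 4 groups, and the labels leave it unsaid whether the arrays of a group came from different animals. The p-values thus cover only how far these samples lie apart, which may be technical.

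Hox genes encode homeodomain transcription factors and sit in each cluster in the order of their paralogue numbers, which matches the order in which they are switched on along the body axis of the embryo. In blood, genes of the HoxA and HoxB clusters are known to be active in stem cells and early progenitors and to be silenced as cells mature. Hox proteins bind DNA together with other homeodomain proteins of the TALE class, the PBX and MEIS families, and MLL and Polycomb complexes keep the clusters active or silent.

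The RefSeq table of promoters (GRCm38.p6), which runs from 250 bases before to 50 bases after a transcription start, held 24 promoters of 22 of the 39 Hox genes. HoxA lies on chromosome 6, HoxB on 11, HoxC on 15 and HoxD on 2. Of the 5 Hox genes whose probes differed between wild-type LSK and GMP (Hoxa2, Hoxa3, Hoxa10, Hoxb2 and Hoxb5), 3 had an entry, and their promoters are shown because these genes were lower together in GMP. Capitals mark matches to the PBX-HOX motif TGATNNAT, the MEIS motif TGACAG or the TATA motif TATAAA, each searched on both strands, so that a match on the opposite strand is printed as its reverse complement.
Hoxa2, chr6:52164782-52165081, minus strand: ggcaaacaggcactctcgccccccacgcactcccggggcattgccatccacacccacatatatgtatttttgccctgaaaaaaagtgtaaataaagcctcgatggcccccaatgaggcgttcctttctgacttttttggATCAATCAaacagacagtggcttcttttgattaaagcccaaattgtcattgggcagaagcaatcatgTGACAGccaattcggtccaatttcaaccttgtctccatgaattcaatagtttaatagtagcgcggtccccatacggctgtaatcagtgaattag
Hoxa3, chr6:52213018-52213317, minus strand: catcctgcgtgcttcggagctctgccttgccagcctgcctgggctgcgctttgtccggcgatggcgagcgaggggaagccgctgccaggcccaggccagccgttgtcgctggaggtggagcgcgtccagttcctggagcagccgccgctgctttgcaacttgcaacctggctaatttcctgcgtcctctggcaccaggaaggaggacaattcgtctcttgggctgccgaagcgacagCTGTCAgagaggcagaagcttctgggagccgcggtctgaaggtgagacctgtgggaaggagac
Hoxa10, chr6:52234890-52235189, minus strand: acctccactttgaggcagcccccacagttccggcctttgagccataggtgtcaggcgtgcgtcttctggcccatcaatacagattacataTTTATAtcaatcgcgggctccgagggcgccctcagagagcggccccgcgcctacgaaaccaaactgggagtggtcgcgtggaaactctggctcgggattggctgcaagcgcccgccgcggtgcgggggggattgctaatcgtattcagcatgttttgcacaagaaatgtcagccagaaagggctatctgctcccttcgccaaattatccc
Hoxa10, chr6:52240805-52241104, minus strand: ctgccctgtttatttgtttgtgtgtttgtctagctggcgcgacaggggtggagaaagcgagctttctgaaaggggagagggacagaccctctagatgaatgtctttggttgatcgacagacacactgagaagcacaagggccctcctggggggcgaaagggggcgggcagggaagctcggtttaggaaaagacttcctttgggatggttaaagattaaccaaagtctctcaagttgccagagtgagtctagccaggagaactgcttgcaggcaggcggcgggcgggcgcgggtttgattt
The Hoxa2 promoter held a PBX-HOX match at −111 and a MEIS match at −44, counted from the start to the first base of the match. The Hoxa3 promoter held a MEIS match at −13. Of the 2 starts listed for Hoxa10, 1 had a TATA match at −160 and the other had no match to any of the 3 motifs. Among all 32851 promoters in the table, 8.85% held the PBX-HOX motif, 19.2% the MEIS motif and 13.6% the TATA motif, against 4, 2 and 4 of the 24 Hox promoters. GC content was 45.7% for Hoxa2, 64.0% for Hoxa3 and 57.3% and 54.3% for the Hoxa10 promoters, with a median of 57.7% over the Hox promoters and 52.7% over all. These matches describe the letters of the reference and no binding was measured.

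All levels below are log2 signal minus the 75th percentile of that array, and since each probe has its own brightness, levels are compared between arrays for 1 probe and never between probes. Deficient LSK replicate 2 was a weak array: 34.3% of its spots were well above background, against 62.5% to 73.1% on the other 7, and its dimmest probe well above background read −1.44, against −6.69 to −4.81 elsewhere. A level from that array below −1.44 is therefore close to its background, and Hoxc4 at −1.22 was not above background there either. Probes without signal read high on that array: Hoxd12, above background on no array, was −2.98 there and −7.92 to −6.02 elsewhere. Such a level can thus lie above GMP arrays without any signal. Deficient GMP replicate 1 was also distant from its own replicate, with a correlation of 0.898 across features, against 0.976 between the wild-type GMP arrays. The barcode gives the slide position of an array as 2 numbers. The first was 1 for the deficient arrays and 2 for the wild-type ones, and an effect of it cannot be told apart from one of genotype. Each of the 4 values of the second number held arrays of 1 population only. The sorts could be checked on their markers: in wild type, 5 of 10 LSK and stem cell markers were called lower in GMP, where called means a Benjamini-Hochberg adjusted p under 0.05 over all features in limma, among them Flt3, Hlf, Procr and Slamf1. The other 5 were not called, and 1.36% of all tested features were called lower. Ly6a, the gene of the Sca1 antigen that separates the gates, was 1.83 and 3.79 in wild-type LSK and 2.83 and 3.11 in wild-type GMP, overlapped and differed by 0.16 (limma, adjusted p = 1.00), so this probe did not separate the populations. Kit, Cd34, Mecom and Cd48 differed by −1.05 to 0.79. Of 8 GMP markers, 5 were called higher, Elane, Ctsg, Fcgr3, Csf1r and Ms4a3, and the other 3, Mpo, Prtn3 and Cebpa, differed by 2.90 to 5.49 without passing the test. Over all tested features, 0.502% were called higher. In deficient mice 0 of 10 LSK and 0 of 8 GMP markers were called. No feature at all was called in that comparison (0% of 28088), so these counts cannot check the sort. There all 8 GMP markers were higher in GMP, but only 5 of the 10 LSK markers were lower. Ly6a was 0.37 and −1.07 in deficient LSK, above background on 1 of these arrays, and −0.17 and 2.24 in deficient GMP.

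Detection differed by cluster and by position in the cluster. HoxA was the most completely detected cluster, with 9 of its 11 genes meeting the filter (among them Hoxa2 to Hoxa7, Hoxa9 and Hoxa10), followed by HoxB with 5 of 10 (Hoxb2 to Hoxb6), HoxC with 3 of 9 (Hoxc4, Hoxc6 and Hoxc8) and HoxD with 2 of 9 (Hoxd8 and Hoxd10). By paralogue number, 5 of 8 genes numbered 1 to 3 met it, 11 of 15 numbered 4 to 8, 3 of 7 numbered 9 to 10 and 0 of 9 numbered 11 to 13, the posterior genes best known from limb and hindgut. The 5 genes well above background on all 8 arrays, Hoxa3, Hoxa4, Hoxa6, Hoxa7 and Hoxa9, all belonged to HoxA. A further 15 genes, Hoxa11, 4 genes of HoxB (Hoxb1, Hoxb7, Hoxb8 and Hoxb13), 4 of HoxC (Hoxc9 and Hoxc11 to Hoxc13) and 6 of HoxD (Hoxd1, Hoxd3, Hoxd4, Hoxd9, Hoxd12 and Hoxd13), were not well above background on any array. The remaining 5 genes were above background only here and there: Hoxc5, Hoxc10 and Hoxa13 on 2 arrays each and Hoxb9 and Hoxd11 on 1 array each. A probe that is not above background may be insensitive, so these counts describe probes and do not show that a gene was silent.

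Fewer Hox genes stood above background in deficient LSK than in any other group, and this went with the weak array. In LSK, 18 Hox genes were well above background on both wild-type arrays and 6 on both deficient arrays, and in GMP the counts were 15 and 12. By array, there were 21 and 20 (wild type) and 17 and 8 (deficient) in LSK, and 16 and 17 (wild type) and 13 and 14 (deficient) in GMP. The array with 8 was the weak one, deficient LSK replicate 2, where Hoxa3, Hoxa4, Hoxa6, Hoxa7, Hoxa9 and Hoxa10 were above background along with Hoxa13 and Hoxc10, which did not meet the filter.

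**Figure D1:**
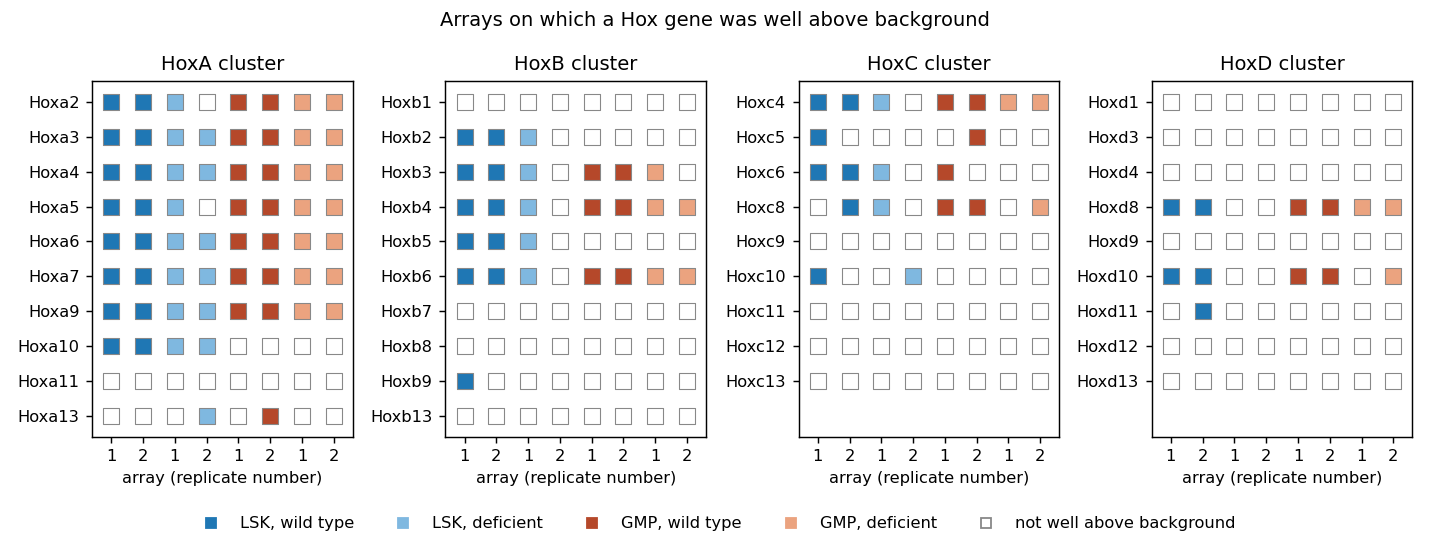
Filled squares show the arrays (columns, 2 for each group) on which a probe of a Hox gene (rows, in 1 panel for each cluster) was well above background, and open squares the arrays on which none was. HoxA is filled over most of its rows, whereas the 9 genes numbered 11 to 13 are nearly empty, with Hoxa13 filled on 2 arrays and Hoxd11 on 1.

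The first comparison asked how Hox expression differed between GMP and LSK cells of wild-type mice. The genes called lower in GMP all belonged to HoxA or HoxB. Their calls did not form an unbroken run, since Hoxa4, Hoxb3 and Hoxb4, which lie between called genes, were not called. By limma, 5 of the 19 tested Hox genes were called lower, Hoxa2, Hoxa3, Hoxa10, Hoxb2 and Hoxb5, and 0 higher, where 1.36% of all tested features were called lower and 0.502% higher. No gene of HoxC or HoxD was called. In these bulk samples, fewer cells that express a gene and less RNA per cell cannot be told apart. A gene that met the filter only through its signal in LSK, as Hoxa10, Hoxb2 and Hoxb5 did, had to be dimmer in GMP, whereas Hoxa2 and Hoxa3 were above background in both wild-type populations.

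Hoxa10, a posterior HoxA gene known to regulate progenitor proliferation, had the largest difference. Its level was −1.38 and −1.19 on the wild-type LSK arrays and −7.11 and −7.54 on the wild-type GMP arrays. On the deficient arrays it was −1.52 and 0.26 in LSK and −6.11 and −6.30 in GMP. All 4 LSK arrays were high and above background, all 4 GMP arrays were low and not above background, and the populations did not overlap. In wild type the fitted difference was −6.04 (SE 0.734, limma, adjusted p = 0.00497). With GMP set at the dimmest signal counted as well above background, Hoxa10 was at least 24.7-fold lower there. This bound holds for the scanner's processed signal only: normexp background correction put the difference at −1.88 (limma, adjusted p = 0.342).

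Hoxa3 and Hoxa2, anterior HoxA genes known from hindbrain and pharyngeal patterning, were lower in GMP but still above background there. For Hoxa3 the level was 2.59 and 1.74 in wild-type LSK (mean 2.17 ± 0.60, SD, n = 2) and −1.10 and −1.31 in wild-type GMP (−1.21 ± 0.15). In deficient mice Hoxa3 was 2.25 and 1.74 in LSK and −0.06 and −1.08 in GMP, so every GMP array lay below every LSK array. The wild-type difference was −3.37 (SE 0.684, limma, adjusted p = 0.0405), a 10.4-fold lower signal. Hoxa2 was −1.18 and −1.66 in wild-type LSK (−1.42 ± 0.34) and −4.55 and −4.64 in wild-type GMP (−4.60 ± 0.07). In deficient mice it was −2.08 and −3.21 in LSK, the latter not above background on the weak array, and −3.81 and −4.27 in GMP. The groups did not overlap in either genotype, and the wild-type difference of −3.18 (SE 0.671, limma, adjusted p = 0.0478) was a 9.03-fold lower signal. Hoxa2 lay closest to the threshold and was not called under 15 of 22 other settings.

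Hoxb5 and Hoxb2, HoxB genes of which Hoxb5 is known to mark long-term haematopoietic stem cells in mice, were not above background on any GMP array. Hoxb5 was −2.72 and −1.88 in wild-type LSK and −6.55 and −7.62 in wild-type GMP. In deficient mice it was −3.41 and −2.78 in LSK, where only the first was above background, and −6.27 and −6.61 in GMP. All 4 GMP arrays lay below all 4 LSK arrays, and GMP minus LSK in wild type was −4.78 (SE 0.695, limma, adjusted p = 0.00995), and Hoxb5 was at least 12.2-fold lower in GMP on this scale. Hoxb2 was −2.04 and −2.50 in wild-type LSK and −7.11 and −6.17 in wild-type GMP. In deficient mice it was −1.96 and −2.84 in LSK, again with only the first above background, and −3.89 and −5.44 in GMP. It was lower on all GMP arrays, with a wild-type difference of −4.37 (SE 0.762, limma, adjusted p = 0.0195) that corresponds to at least a 12.5-fold lower signal on this scale. These bounds hold for the scanner's processed signal: with normexp background correction the differences were −1.43 for Hoxb5 (limma, adjusted p = 0.732) and −1.27 for Hoxb2 (adjusted p = 0.835).

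These calls rested on both wild-type arrays of each population, and the share of all features called moved with them. With wild-type LSK replicate 1, wild-type LSK replicate 2 or wild-type GMP replicate 2 left out, 0 Hox genes were called, and without wild-type GMP replicate 1 only Hoxa10 was, with 0.0605% to 0.31% of all features called in these 4 fits against 1.86% with all arrays. Without deficient LSK replicate 2 and deficient GMP replicate 1, 8 Hox genes were called lower in wild-type GMP, but 4.76% of all features were called too, and the differences themselves did not move since those arrays only feed the estimate of spread.

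**Figure D2:**
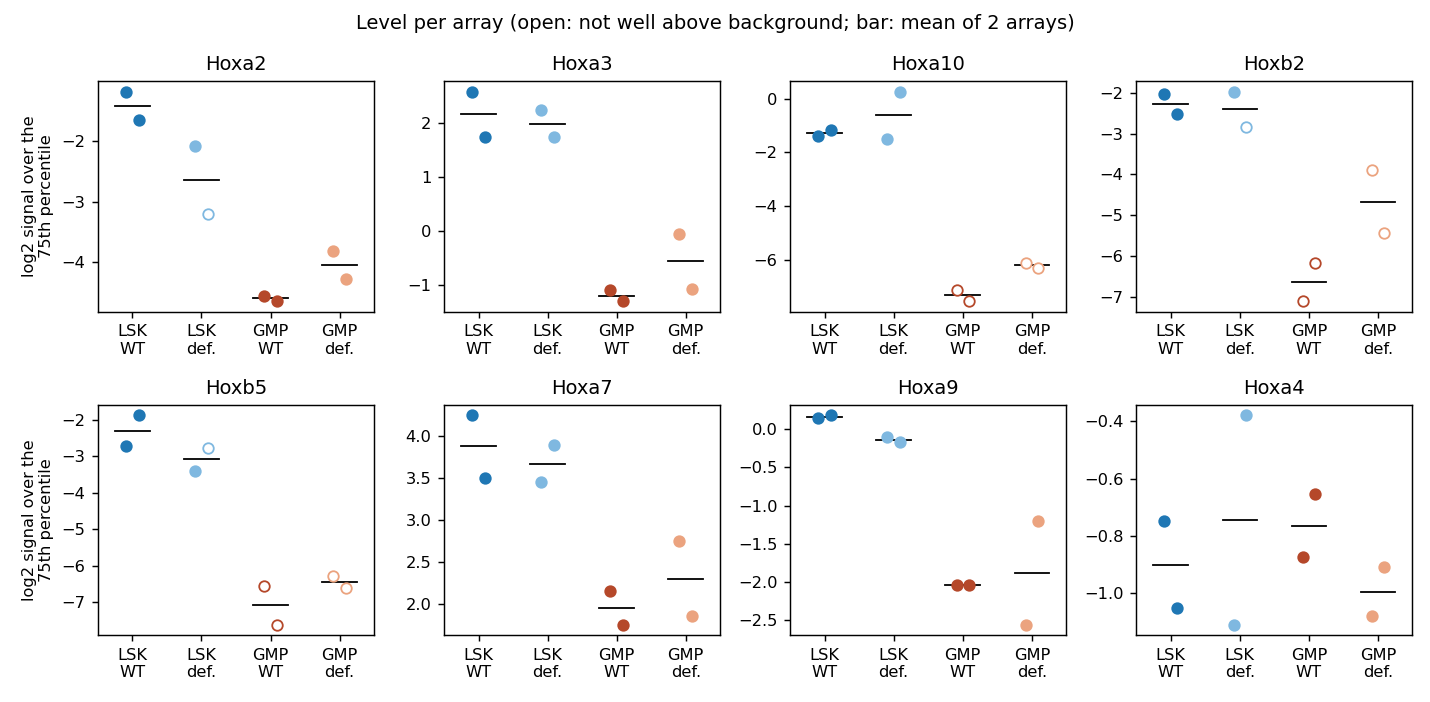
Points are the log2 signal over the array's 75th percentile (vertical axis, scaled separately in each panel) on the 2 arrays of each group for 8 Hox genes, open where the probe was not well above background, with bars at group means. Hoxa2, Hoxa3, Hoxa10, Hoxb2, Hoxb5, Hoxa7 and Hoxa9 have all 4 GMP arrays below all 4 LSK arrays, and Hoxa4 does not. For Hoxa2, Hoxb2 and Hoxb5 the point of deficient LSK replicate 2 is open.

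Hoxa9, Hoxa7 and Hoxa5 had smaller negative differences that did not pass the test. Hoxa9, the HoxA gene best known as a driver of progenitor self-renewal and of leukaemia, was 0.15 and 0.18 (wild type) and −0.10 and −0.17 (deficient) in LSK, and −2.04 and −2.04 (wild type) and −2.56 and −1.20 (deficient) in GMP. It was above background on all 8 arrays, the populations did not overlap, and the wild-type difference was −2.21 (SE 0.677, limma, adjusted p = 0.217). A second Hoxa9 probe gave −2.16. Hoxa7 was 4.24 and 3.50 (wild type) and 3.45 and 3.89 (deficient) in LSK, and 2.16 and 1.76 (wild type) and 2.75 and 1.86 (deficient) in GMP. It too separated the populations without overlap, at −1.91 (limma, adjusted p = 0.338). Hoxa5, which was −0.50 and 0.28 in wild-type LSK and −2.96 and −3.03 in wild-type GMP, differed by −2.89 (limma, adjusted p = 0.153).

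Hoxa4 and Hoxa6 showed no separation of the populations over the 8 arrays. Hoxa4 was −0.75 and −1.05 (wild type) and −1.11 and −0.38 (deficient) in LSK, and −0.87 and −0.65 (wild type) and −1.08 and −0.91 (deficient) in GMP. Its wild-type difference was 0.14, with a 95% interval from −1.27 to 1.55, which does not reach the sizes fitted for Hoxa2 and Hoxa3 in the same cluster. Hoxa6 was −1.80 and −0.88 in wild-type LSK and −2.14 and −3.19 in wild-type GMP, a difference of −1.33 (limma, adjusted p = 0.895). These wild-type arrays did not overlap, and the 95% interval from −3.31 to 0.66 reaches the size fitted for Hoxa2.

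Within HoxB, Hoxb3 stood between the called genes and those that hardly differed. It was −1.50 and −1.16 (wild type) and −1.88 and −3.12 (deficient) in LSK, and −3.68 and −5.02 (wild type) and −2.62 and −4.72 (deficient) in GMP. The wild-type arrays did not overlap and the deficient ones did, with a wild-type difference of −3.02 (SE 0.875, limma, adjusted p = 0.176). A second Hoxb3 probe was not above background on any GMP array. Hoxb4, known for expanding haematopoietic stem cells when overexpressed, was 1.31 and 1.14 in wild-type LSK and 0.48 and 0.39 in wild-type GMP. These did not overlap either, but the difference was −0.79 with a 95% interval from −2.86 to 1.28. Hoxb6, at −1.75 and −2.03 (wild type) and −2.15 and −2.70 (deficient) in LSK and −2.51 and −2.01 (wild type) and −3.18 and −1.95 (deficient) in GMP, overlapped between populations and differed by −0.37.

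Of the HoxC and HoxD genes, Hoxc6 alone had all 4 GMP arrays below all 4 LSK arrays. It was −3.41 and −2.39 (wild type) and −3.93 and −2.04 (deficient) in LSK, and −4.27 and −5.53 (wild type) and −4.05 and −5.06 (deficient) in GMP. The wild-type difference was −1.998 (SE 0.855, limma, adjusted p = 0.553), and in GMP only wild-type replicate 1 was above background. Hoxc6 met the filter only through wild-type LSK, and its −2.04 on the weak deficient LSK array was not above background. The other deficient LSK array, at −3.93, lay just above deficient GMP at −4.05. Hoxc4 was −2.99 and −3.62 (wild type) and −4.40 and −1.22 (deficient) in LSK and −3.52 and −3.55 (wild type) and −3.10 and −3.19 (deficient) in GMP, a wild-type difference of −0.23. Its −1.22 on the weak array was not above background. Hoxc8, at −4.49 and −5.16 in wild-type LSK and −4.45 and −3.76 in wild-type GMP, did not overlap and differed by 0.72 (limma, adjusted p = 1.00). Hoxd8 differed by −0.16 and Hoxd10 by 0.13 between the wild-type populations, both with arrays that overlapped.

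Counted over the tested Hox genes, the wild-type difference was below 0 for 16 of 19, where it was below 0 for 49.2% of all tested features. The median difference was −1.91 over the Hox genes and 0.01 over all features. At an unadjusted p under 0.05, 10 Hox genes were lower and 0 higher, against 5.52% and 2.88% of features. In 13 of 19 the wild-type GMP arrays both lay below both LSK arrays, as for 20.2% of features, and in 8 of 19 all 4 GMP arrays lay below all 4 LSK arrays (Hoxa2, Hoxa3, Hoxa7, Hoxa9, Hoxa10, Hoxb2, Hoxb5 and Hoxc6), as for 4.69%. Of these 8, Hoxa2, Hoxb2, Hoxb5 and Hoxc6 were not above background on the weak array, where a probe without signal can also lie above GMP. These shares cover the genes that met the filter, which some met only through LSK. Scaling to the array median in place of the 75th percentile raised the median of all features to 0.34 and left 14 of 19 Hox genes below 0.

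The same comparison in deficient mice had its own arrays on both sides. No feature was called there by limma, Hox or other (0% of 28088), and 5 Hox genes had an unadjusted p under 0.05, all lower in GMP, Hoxa3, Hoxa9, Hoxa10, Hoxb2 and Hoxb5, against 7.11% of features. Hoxa10 differed by −5.57 (SE 0.734, limma, adjusted p = 0.0943) and was at least 22.8-fold lower in GMP, a bound that holds for the scanner's processed signal only. Hoxb5 differed by −3.35 (adjusted p = 0.140), Hoxa3 by −2.57 (adjusted p = 0.161), Hoxb2 by −2.27 (adjusted p = 0.209), Hoxa9 by −1.74 (adjusted p = 0.251) and Hoxa2 by −1.40 (adjusted p = 0.328), all by limma, with Hoxb5 and Hoxb2 not above background on any GMP array. When deficient LSK was represented by its weak array alone, with replicate 1 left out, Hoxa10 and Hoxb5 were called along with 15.2% of all features, and Hoxb5 was not above background on that array. Arrays of 8 of the 19 genes did not overlap, with GMP below LSK, as for 18.6% of features, and the median was −1.17 over the Hox genes and −0.07 over all features. Among these 8, Hoxa2, Hoxb2, Hoxb5 and Hoxc6 were not above background on the weak array, so its place above GMP does not show signal for them.

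Whether the population difference itself changed with genotype was tested as the deficient difference minus the wild-type one. No Hox gene and no other feature was called by limma (0%), and 0 Hox genes had an unadjusted p under 0.05, against 2.47% of features. The estimates were wide: 2.10 for Hoxb2 (95% interval −0.31 to 4.51), 1.78 for Hoxa2 (−0.34 to 3.90), 1.43 for Hoxb5 (−0.77 to 3.63), 0.81 for Hoxa3 (−1.36 to 2.97) and 0.47 for Hoxa10 (−1.85 to 2.79), where Hoxb2, Hoxb5 and Hoxa10 rest on GMP signals at the background. They were above 0 for 15 of 19 genes, against 49.7% of features, and neither a smaller nor an equal difference in deficient mice was shown for any of them. In an average over both genotypes, added after the values had been seen, the same 5 genes as in wild type were called lower, against 2.27% of features, from −5.81 for Hoxa10 (limma, adjusted p = 0.00185) to −2.29 for Hoxa2 (adjusted p = 0.0310). Of these, Hoxa10 alone was called under all 20 other settings, where its difference ran from −6.26 to −1.83. Hoxa10, Hoxb2 and Hoxb5 met the filter only through LSK and so had to be dimmer in GMP here too. In that average, where 3.44% of all features were called, 2 Hox genes were called without wild-type LSK replicate 1 (1.16% of all features) or without wild-type GMP replicate 1 (1.4%), and 3 when the second wild-type GMP array was dropped (1.42%). There were 9 without deficient LSK replicate 1, but this fit knows deficient LSK only from the weak array and called 14.6% of all features.

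**Figure D3:**
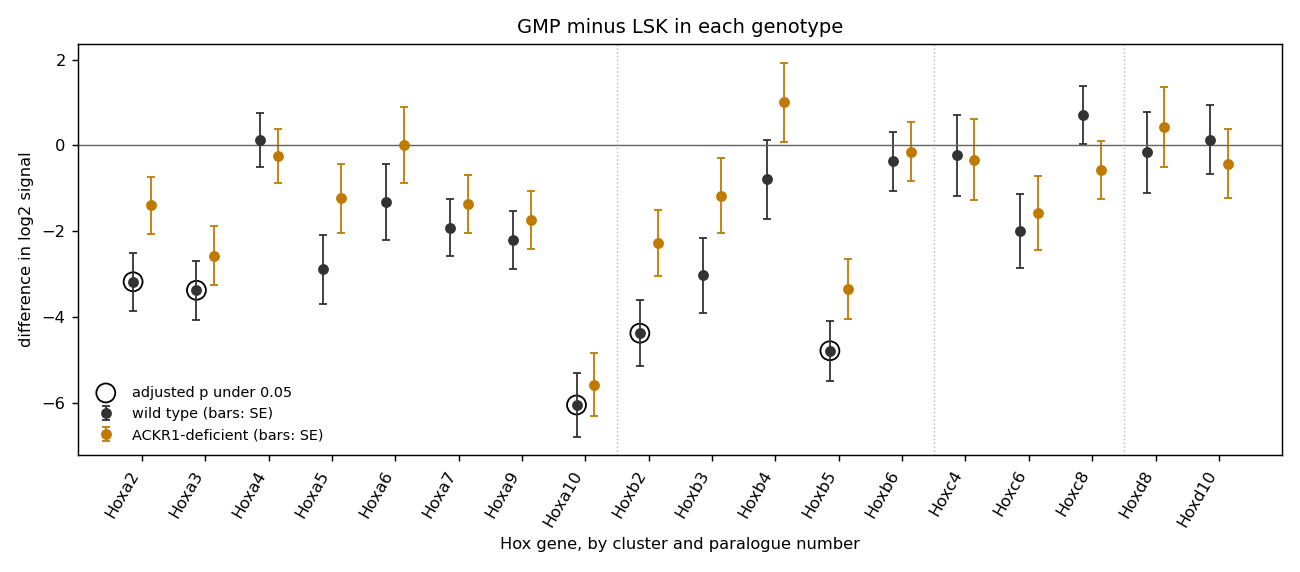
Points are the fitted GMP minus LSK difference in log2 signal (vertical axis) for 18 of the 19 tested Hox genes (horizontal axis) in wild-type (dark) and ACKR1-deficient (orange) mice, with bars of 1 SE and rings at an adjusted p under 0.05. Rings mark Hoxa2, Hoxa3, Hoxa10, Hoxb2 and Hoxb5 in wild type and none in deficient mice.

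The partners and regulators of Hox genes were described beside them. Of the TALE cofactors, 8 of 9 were tested and 1 was called, Meis1, which encodes the partner of Hoxa9 in stem cells. In wild type it was called lower in GMP, as were 1.36% of all tested features. Meis1 was 5.85 and 5.55 (wild type) and 5.52 and 3.71 (deficient) in LSK, and 1.81 and 1.27 (wild type) and 4.37 and 2.50 (deficient) in GMP. The wild-type arrays were far apart and the deficient ones overlapped: the difference was −4.16 in wild type (SE 0.853, limma, adjusted p = 0.0425) and −1.18 in deficient mice (adjusted p = 0.500), and their contrast of 2.98 was not called (adjusted p = 0.961). The Meis1 call was lost without any 1 of the 4 wild-type arrays. The median over the 8 cofactors was −0.19, against 0.01 over all features.

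Of 15 genes known to keep Hox clusters active (the MLL complex, its partners and Cdx factors), 12 were tested and 0 were called in any comparison by limma. Calls were rare over all features: 1.36% lower and 0.502% higher in wild type, and 0.239% and 0.146% between genotypes in LSK and GMP. Thus 0 calls in a list this short do not show that its genes were unchanged. The smallest p between wild-type populations belonged to Mllt3, a leukaemia fusion partner that sustains stem cells, at −1.71 (limma, adjusted p = 0.398), and to Dpy30, an MLL complex subunit, at 1.19. Of 16 Polycomb genes, 15 were tested and 0 called, with the same limit. Cbx2, a subunit that reads the repressive mark, was −1.92 (limma, adjusted p = 0.371) and Ezh1, a methyltransferase that writes it, −1.11 in wild type. The median wild-type difference was 0.21 over the activators and 0.03 over the Polycomb genes. Kmt2a, the gene of MLL itself, was among those not tested.

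Of 10 genes known as targets of Hoxa9 with Meis1, all were tested and 2 were called in wild type. Over all tested features, 1.36% were called lower there and 0.502% higher. Flt3, a growth factor receptor of multipotent progenitors, was 4.65 and 5.65 in LSK and −0.81 and −0.87 in GMP, a difference of −5.99 (SE 0.997, limma, adjusted p = 0.0166). Cybb, the NADPH oxidase subunit of phagocytes, was −6.59 and −4.61 in LSK and 0.84 and 0.51 in GMP, a difference of 6.28 (SE 1.04, limma, adjusted p = 0.0165). The target list therefore held 1 gene in each direction, with a median of −0.66, and both calls were lost without any 1 of the 4 wild-type arrays. Flt3 also stands in the LSK marker list. In deficient mice Flt3 differed by −2.56 (limma, adjusted p = 0.253). None of the 10 was called between genotypes, where 0.239% of all features were called in LSK and 0.146% in GMP.

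The next comparison asked whether ACKR1 deficiency changed Hox expression in LSK cells. No Hox gene was called by limma, where 0.239% of all features were called, all of them higher, and 1 Hox gene, Hoxa5, had an unadjusted p under 0.05, against 3.38% of features lower at that p. Hoxa5 was −0.50 and 0.28 in wild-type LSK and −1.08 and −3.29 in deficient LSK, where the first alone was above background. In GMP it was −2.96 and −3.03 (wild type) and −3.62 and −3.22 (deficient). Both deficient LSK arrays lay below both wild-type ones, and the difference was −2.08 (SE 0.807, limma, adjusted p = 0.550). Without the weak deficient LSK replicate 2 the Hoxa5 difference was −0.97 and not called. With the weak array as the only deficient LSK sample, where Hoxa5 was not above background, it was −3.18 and called along with 10.1% of all features.

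The next smallest p-values in LSK belonged to Hoxa2, Hoxc8, Hoxb4 and Hoxb3. Hoxa2, with its levels given above, differed by −1.22 as deficient minus wild type (limma, adjusted p = 0.564). Hoxc8 was −4.49 and −5.16 in wild-type LSK and −4.09 and −3.20 in deficient LSK, a difference of 1.18 (limma, adjusted p = 0.570), and was above background on 1 array of each group. Hoxb4 was 1.31 and 1.14 in wild-type LSK and 1.24 and −1.51 in deficient LSK, so the groups differed through the weak array alone, where it was not above background. In deficient GMP it was 1.60 and 0.13. The Hoxb4 difference of −1.36 (limma, adjusted p = 0.589) became 0.01 without that array. Hoxb3 differed by −1.17 at its brighter probe, which was not above background on the weak array, and its second probe was not above background on either deficient LSK array. Without the weak array the differences were −0.66 for Hoxa2, 0.73 for Hoxc8 and −0.55 for Hoxb3 at its brighter probe.

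The deficient LSK arrays lay below both wild-type arrays for 6 of 19 Hox genes (Hoxa2, Hoxa5, Hoxa9, Hoxb3, Hoxb5 and Hoxb6), or 31.6%, against 21.1% of all features, and above them for Hoxc8, against 16.4% of features. Of these 6, Hoxa9 alone was above background on the weak array. Hoxa9 and Hoxa7, both above background throughout, differed by −0.30 and −0.20, and Hoxa9 by 0.45 at its second probe. The median over the tested Hox genes was −0.13, against 0.11 over all features.

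In GMP cells the same comparison again called 0 Hox genes by limma, where 0.146% of features were called. At an unadjusted p under 0.05 there were 2, Hoxb2 and Hoxa6, both higher, against 3.42% of features. Hoxa6, at −2.14 and −3.19 (wild type) and −0.11 and −1.02 (deficient), was above background on all 4 arrays without overlap. Its difference was 2.10 (SE 0.886, limma, adjusted p = 0.955). In deficient LSK, Hoxa6 was −1.74 and 0.59. Hoxb2 was higher by 1.97 (limma, adjusted p = 0.955) but not above background on any GMP array, and likewise Hoxa10 by 1.12, so that both compare signals at the background. Without deficient GMP replicate 1 the differences were 1.64 for Hoxa6 and 1.20 for Hoxb2.

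Hoxd8 and Hoxa3 complete the 5 smallest p-values in GMP. In GMP, Hoxd8 was −4.64 and −4.63 (wild type) and −2.70 and −4.59 (deficient), and in LSK it was −3.88 and −5.07 (wild type) and −5.18 and −2.96 (deficient). It was not above background on either deficient LSK array. Its GMP difference of 0.99 was 0.05 without deficient GMP replicate 1, the array that read high. Hoxa3 differed by 0.64, and by 0.13 without that array. Deficient GMP arrays lay above both wild-type arrays for 8 Hox genes (Hoxa2, Hoxa3, Hoxa6, Hoxa10, Hoxb2, Hoxc4, Hoxd8 and Hoxd10), against 20.1% of features, and below them for Hoxa4 and Hoxa5, against 19.5%. Of the 8 that lay above, Hoxa10 and Hoxb2 were not above background on any GMP array. Hoxd10 was above background on only 1 deficient GMP array. A probe without signal can separate the genotypes in the same way. Hoxd12, for example, read −6.02 and −6.98 on the deficient GMP arrays, against −7.11 and −7.62 on the wild-type ones. The median was 0.43 over the tested Hox genes and 0.16 over all features. The count of 8 and the Hox median include genes at the background, so neither shows a Hox shift by itself.

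Averaged over both populations, no Hox gene was called between genotypes by limma, where 0.602% of features were, and Hoxa6 alone had an unadjusted p under 0.05, against 6.8% of features higher at that p. The smallest p-values belonged to differences of 1.43 for Hoxa6 (limma, adjusted p = 0.405), −1.25 for Hoxa5 (adjusted p = 0.416), 0.92 for Hoxb2 and 0.89 for Hoxa10 (adjusted p = 0.502), neither of which was above background in GMP. Hoxd10, which completes the 5 smallest p-values, was −4.09 and −5.21 (wild type) and −4.62 and −2.64 (deficient) in LSK, and −4.74 and −4.29 (wild type) and −4.29 and −3.82 (deficient) in GMP, and differed by 0.74, but was not above background on either deficient LSK array. A p that misses the threshold does not show that the genotypes were alike: the standard errors of the 19 tested genes within a population were 0.631 to 0.949 in log2 units.

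Markers of other cells moved with genotype in the same arrays. Of 9 mature neutrophil markers, 8 were called higher in deficient LSK and 6 in deficient GMP (limma), and their summed level was 3.34 to 10.6 in wild-type LSK and 1350 to 3268 in deficient LSK, in units of the array's 75th percentile. In GMP the neutrophil sum was 8.77 to 17.2 in wild type and 1252 to 3333 in deficient mice, with Mmp8 not above background in wild-type LSK and Retnlg not in wild-type GMP. Of 8 erythroid markers, 5 were called higher in each population, and the erythroid sum was 8.01 to 44.7 and 1349 to 8187 in wild-type and deficient LSK and 4.32 to 9.82 and 1135 to 2750 in wild-type and deficient GMP. Of the B-lineage list, 5 of 7 were tested and 1 was called higher in each population, and of the stroma and endothelium list, 6 of 9 were tested and 0 called. Over all features, 0.239% were called between genotypes in LSK and 0.146% in GMP. The LSK and stem cell sum was 293 to 370 in wild-type LSK and 146 to 202 in deficient LSK. In GMP it was 134 to 169 in wild type and 146 to 299 in deficient mice. None of its 10 markers was called between genotypes in either population. Such a sum leans on its brightest probe, here Cd34, at 7.56 and 7.72 in wild-type LSK and 6.88 and 6.52 in deficient LSK. The part of these markers in the Hox values was not tested.

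**Figure D4:**
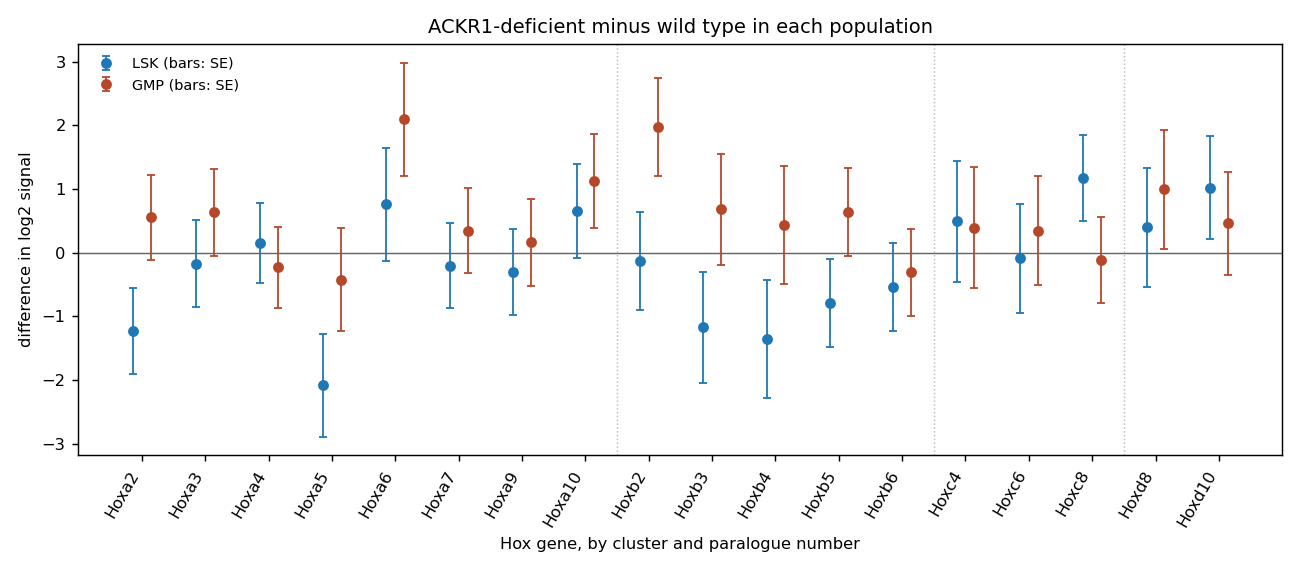
Points are the fitted ACKR1-deficient minus wild-type difference in log2 signal (vertical axis) for 18 of the 19 tested Hox genes (horizontal axis) in LSK (blue) and GMP (red) cells, with bars of 1 SE. None passed an adjusted p of 0.05, and the differences farthest from 0 were −2.08 for Hoxa5 in LSK and 2.10 for Hoxa6 in GMP.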

How the data were processed

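Per the file headers, each array was read with Agilent Feature Extraction 10.7.3.1, and the deposited processed signal of a spot is a background-corrected fluorescence intensity on a linear scale. The authors' table of normalized values holds log2 values, which matched the scanner's processed signals shifted to the 75th percentile, with the median of a probe over the arrays taken off (r between 0.999687 and 0.999965). Its column medians ran from −0.27 to 1.25. The sources used here give no further step by the authors. All 8 arrays shared 1 slide and 1 scan.

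Here, log2 processed signal was taken minus the array's 75th percentile over non-control spots, without outliers, and averaged over the spots of a probe. Kept probes (39098 of 55681) were well above background on every array of 1 or more groups, and a gene was represented by its kept probe with the highest mean. Symbols came from a RefSeq gene table of GRCm38.p6. A fold written "at least" sets a group without signal above background at the dimmest level counted as well above background on each of its arrays, or at the probe's own level where higher. It is not a firm limit, since some probes without such signal read higher. On wild-type GMP replicate 1, Hoxc5 was not above background at −5.13, against a dimmest counted level of −5.74. Group differences were fitted with limma 3.58.1 in R 4.3.3 on 4 group means over 8 arrays (4 residual and 5.756 prior degrees of freedom), with Benjamini-Hochberg adjustment over 28088 features, and intervals are at 95%. The data.table package, version 1.17.8, read the files, and matplotlib 3.10.9 under Python 3.11.15 drew the figures. The fitting code was first tested on simulated data.

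Levels are given for every called Hox gene and for the 5 with the smallest p in each genotype comparison. Of each partner or regulator list, called genes or else the 2 with the smallest p are named, with Meis1. Some genes that these rules cover are counted but not reported here by name. Members and lists were chosen with earlier results of these data known. Alternatives were other filters, background correction, scaling, the deposited table, array weights, blocks, fewer arrays and each array left out.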

Additional observations from a re-analysis of the deposited data

How the results depend on the processing

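Between wild-type populations 5 Hox genes and 1.86% of all features were called. The Hox count was 2 without a filter (0.573% of all features), 2 with a filter of 4 of 8 arrays (1.27%), 1 with normexp background correction (Hoxa3, 1.15%), 0 with quantile normalization (0.292%) and 2 with median scaling (0.712%). It was 9 with array weights (7.73%), 8 from the compared arrays alone (4.76%) and 8 without the pair of arrays that stood apart (4.76%), so the 3 larger counts came with more calls over all features, and they include genes outside the 5. Leaving out 1 array at a time gave 0 to 6 calls in wild type, 0 to 2 in deficient mice, 0 to 1 between genotypes in LSK and 2 to 9 in the average over genotypes. The highest of the last 3 ranges came without deficient LSK replicate 1, where 15.2%, 10.1% and 14.6% of all features were called. In deficient mice, where 0 were called, 1 was called from the compared arrays alone (0.463% of all features) and 2 with the second number of the slide position as a fixed block (2.45%). Since each value of that number held 1 population, the fixed block leaves the spread between positions out of the error of a population difference. With that number as a random block (limma, correlation −0.183), 0 were called in deficient mice, 4 in wild type, without Hoxa2, and 7 in the average over genotypes. The average over genotypes called 3 with the stricter filter, 3 with normexp, 3 with quantile normalization and 8 without that pair of arrays (7.27% of all features), against 5 (3.44%). Between genotypes in GMP, in the average over populations and in the test of the difference, 0 Hox genes were called under every setting run. Reversed signs were 0.46 for Hoxa2 in the deficient population difference under quantile normalization and, between genotypes in LSK, 0.27 for Hoxa2 and 0.12 for Hoxb3 under normexp, −0.74 for Hoxc8 under quantile normalization and 0.014 for Hoxb4 without deficient LSK replicate 2, alone or with the other distant array (−2.73 to 0.014 over arrays left out singly). The causes were not tested. The labels do not say whether replicate numbers pair the samples. Correlations of deviations ran from −0.34 to 0.34 between groups, which cannot decide it with 2 arrays a group. With the replicate block 4 genes were called in wild type, with Hoxa2 lost, and 4 under crossed pairing. Median scaling moved the median of all features to 0.34 and 0.54 between populations in wild type and deficient mice, and to −0.46 between genotypes in LSK. Signal over background on deficient LSK replicate 2 limits every value for deficient LSK. Leaving out the pair of arrays, the slide position blocks, the crossed pairing and the average over genotypes were chosen after seeing the data.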

Other observations

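Some transcripts of the Hox clusters that are not Hox genes themselves were also on the array. Of Evx1, Evx2, Hoxa11os and Hoxd3os1, only Hoxa11os, an RNA transcribed opposite to Hoxa11, met the filter. Its level was −1.94 and −2.25 (wild type) and −2.02 and −1.23 (deficient) in LSK, and −2.07 and −1.73 (wild type) and −2.13 and −1.98 (deficient) in GMP. In deficient LSK only 1 of the arrays was above background. These levels overlapped between all 4 groups, the wild-type GMP minus LSK difference was 0.20 (limma, adjusted p = 1.00), and no comparison called it. The probe of Hoxa11 itself was not well above background on any array.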
